A study of Homo sapiens with 12 samples.

Results

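The 9 genes described here are the front end of the type I interferon pathway: the receptor chains IFNAR1 and IFNAR2, the receptor kinases JAK1 and TYK2, the signal transducer STAT2, and the interferon regulatory factors IRF1, IRF3, IRF7 and IRF9. They were chosen by gene name, as members of this pathway, from the 58302 genes listed in the files, of which 36305 were detected in some library. RNA was taken from 769-P and ACHN cells, established human renal carcinoma lines, 48 h after transfection with siRNA against NUF2 (si-NUF2) or a control siRNA (si-NC). The study describes si-NUF2 as a mix of siRNAs against NUF2. NUF2 is a subunit of the NDC80 complex, which joins kinetochores to spindle microtubules. Each line and siRNA had 3 libraries, 12 in all, and every library, controls included, came from transfected cells, with no untreated cells among the samples. The labels do not say whether the 3 repeats were separate cultures, so the p-values measure the spread between these samples, which may be technical.

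Type I interferons bind a receptor made of IFNAR1 and IFNAR2, whose cytoplasmic tails carry TYK2 and JAK1. The kinases phosphorylate STAT2 and a further STAT, which join IRF9 in a complex that enters the nucleus and switches on interferon-stimulated genes. IRF3 and IRF7 act further upstream, where sensors of viral RNA and DNA activate them and they switch on the interferon genes themselves. IRF3 is held ready in most cells, whereas IRF7 and IRF9 are themselves interferon-stimulated genes, and IRF1 is switched on chiefly by interferon gamma. The activity of the kinases and of the STATs depends on phosphorylation, which RNA levels do not show.

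The values are FPKM, read fragments scaled by exon length and by the depth of the library, so that levels of different genes can be set side by side. Recovered reads came to between 26367685 and 34581823 per library. NUF2, the target, had 4.17, 3.86 and 3.01 FPKM in the si-NUF2 libraries of 769-P cells (replicates 1, 2 and 3) against 19.4, 17.8 and 17.8 FPKM with si-NC. In ACHN cells it had 2.16, 5.14 and 4.25 FPKM against 11.6, 15.0 and 14.8 FPKM. All 6 knockdown libraries lay below all 6 control libraries. The log2 fold change of NUF2 was -2.29 in 769-P cells (limma, Benjamini-Hochberg adjusted p = 0.00141) and -1.88 in ACHN cells (adjusted p = 0.228, and 0.0127 with the replicate number blocked). Of 10 renal markers 8 were at 0.5 FPKM or more in all 12 libraries. The exceptions were CA9, at most 0.121 FPKM in any library, and CDH6, at a mean of 6.17 FPKM in 769-P and 0.000699 FPKM in ACHN cells with si-NC. The sum of 6 leukocyte markers was between 0.309 and 1.22 FPKM. The highest of them was ITGAM, at up to 1.1 FPKM in an ACHN library, and CD3E was at 0 in all 12 libraries.

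Changes with si-NUF2 were tested in each line alone with limma on log2(FPKM + 0.1), over genes with at least 0.5 FPKM in at least 3 of the 6 libraries, and a gene was called differentially expressed at a Benjamini-Hochberg adjusted p under 0.05 over all genes tested. Same-numbered libraries of a line deviated together from their group means, so a second fit, blocked on replicate number, is given wherever it changed a call. An exact two-sided permutation test of 3 libraries against 3 cannot give a p below 0.1 and could call no gene. In bulk RNA, a change in every cell and a change in the share of cells that carry a transcript cannot be told apart.

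At baseline, in the si-NC libraries, JAK1 had the highest level of the 9 genes in both lines and IRF9 the lowest. In 769-P cells the mean levels ran from JAK1 (71.1 FPKM) through IRF3 (15.3 FPKM), TYK2 (8.89 FPKM), IFNAR1 (7.41 FPKM), IRF7 (6.87 FPKM), IFNAR2 (5.91 FPKM), STAT2 (5.21 FPKM) and IRF1 (3.27 FPKM) to IRF9 (0.410 FPKM). The ranges of neighbours overlapped from TYK2 down to STAT2, so that the order of neighbours among these 5 genes was not settled by 3 libraries. TYK2 and IFNAR1 nevertheless lay above IFNAR2 and STAT2 without overlap. JAK1, IRF3, IRF1 and IRF9 were each apart from their neighbours. In ACHN cells the order was JAK1 (122 FPKM), IRF3 (14.7 FPKM), IFNAR2 (12.8 FPKM), TYK2 (11.1 FPKM), STAT2 (10.8 FPKM), IRF1 (10.2 FPKM), IFNAR1 (7.70 FPKM), IRF7 (3.07 FPKM) and IRF9 (0.307 FPKM). There the ranges of neighbours overlapped from IRF3 down to IFNAR1. IRF7 was apart from both its neighbours in ACHN cells and from neither in 769-P cells.

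**Figure D1:**
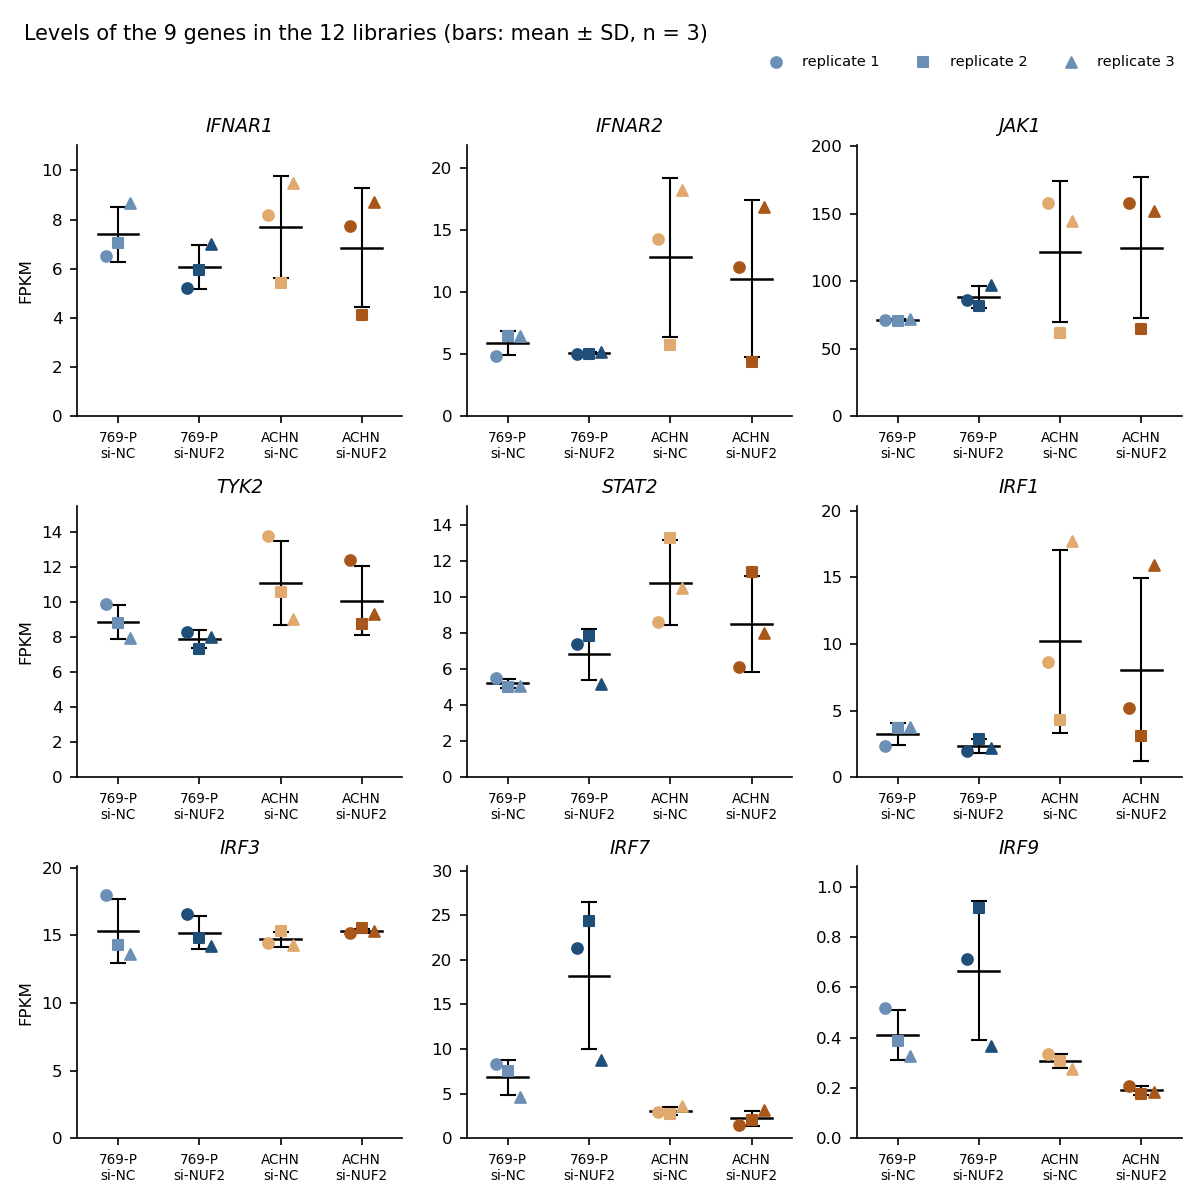
Levels in FPKM (y axis, linear from 0) of the 9 genes in the 4 groups of libraries, with each replicate as a point and the mean ± SD (n = 3) as bars. IRF7 in 769-P cells has the largest relative gap between si-NUF2 and si-NC, and ACHN replicate 2 sits low for IFNAR1, IFNAR2, JAK1 and IRF1 with either siRNA.

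Of the 8 members tested at baseline, STAT2 and IRF1 were lower in 769-P than in ACHN cells and IRF7 was higher. These 3 of 8 compare with a background of 61.4% of all genes tested that differed between the lines, so the share among the members was no larger than among genes at large. STAT2 had 5.51, 5.04 and 5.08 FPKM in 769-P and 8.60, 13.3 and 10.5 FPKM in ACHN cells, a log2 difference (769-P minus ACHN) of -1.0 (SE 0.166, adjusted p = 0.00191, limma). IRF7 had 8.38, 7.57 and 4.66 FPKM against 2.90, 2.69 and 3.61 FPKM, a log2 difference of 1.12 (SE 0.239, adjusted p = 0.00592). The lines did not overlap for STAT2, IRF7 or IRF1, beside 68.3% of all genes tested, and the calls of STAT2 and IRF7 held when any 1 library was left out. For IRF1 the values were 2.32, 3.70 and 3.80 FPKM in 769-P and 8.66, 4.28 and 17.7 FPKM in ACHN cells, a log2 difference of -1.40 (SE 0.490, adjusted p = 0.0422). That call was lost when any 1 library other than ACHN replicate 2 was left out (adjusted p between 0.0773 and 0.127). JAK1 and IFNAR2 were not called (adjusted p = 0.146 and 0.0842), and without ACHN si-NC replicate 2 both were lower in 769-P cells, by log2 differences of -1.08 (adjusted p = 0.000236) and -1.44 (adjusted p = 0.000903). The study grew the lines in different media. Cell line, medium and any batch of culture or library cannot be told apart in this comparison.

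Genes around the members also differed between the lines at baseline. The 5 STATs on a list of others (STAT3, STAT4, STAT5A, STAT5B and STAT6) were lower in 769-P cells, among them STAT5A (0.026 against 7.12 FPKM, log2 difference -5.69) and STAT4 (0.134 against 3.51 FPKM, log2 difference -3.82). MYD88, the adaptor through which endosomal Toll-like receptors reach IRF7, was near 0 in 769-P cells (mean 0.0453 FPKM) and at 6.31 FPKM in ACHN cells. TBK1, the kinase that phosphorylates IRF3, was also lower in 769-P cells (log2 difference -1.05, adjusted p = 0.00119). Of the 11 kinases and adaptors upstream of IRF3 and IRF7, all tested, 5 were called lower there. MAVS was the 1 called higher (log2 difference 0.46, adjusted p = 0.00368). IFNLR1, the chain that gives the type III interferon receptor its specificity, was listed at 0 in every 769-P library and had 2.12 FPKM in ACHN cells with si-NC. Of 12 textbook targets of IRF1, 8 of the 10 tested were lower in 769-P cells and none was called higher, with PSMB9, GBP3, WARS and TAP1 leading by p. Beside these counts, 61.4% of all genes tested were called in either direction. STAT4, STAT5A, MYD88, IFNLR1 and, of the IRF1 targets, CASP1 passed the filter only through the ACHN libraries, which fixed their direction in advance.

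With si-NUF2 in 769-P cells, IRF7 had the largest log2 fold change of the members, JAK1 was slightly higher, IFNAR1 slightly lower, and the other 6 were not called with or without the block. Without the block 1 of the 9 members was called (JAK1), against a background of 9.9% of 14157 genes tested. With the block 3 of the 9 were called (JAK1, IRF7 and IFNAR1), against 27.6% of genes. Each share was close to its background, and the median log2 fold change of the members was 0.01, beside -0.007 for all genes. The groups of libraries did not overlap for 2 of the 9 members, JAK1 and IRF7, beside 33.3% of all genes tested.

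IRF7 (ENSG00000185507) is at 612553 to 615999 of chromosome 11 (GRCh38, reverse strand) and shares no exon bases with another annotated gene. In 769-P cells it had 21.3, 24.4 and 8.81 FPKM with si-NUF2 and 8.38, 7.57 and 4.66 FPKM with si-NC. The groups did not overlap, but si-NUF2 replicate 3 lay close to the highest control, and its own partner, si-NC replicate 3, was the lowest control. The ratio of the means was 2.64, and the log2 fold change was 1.32 (95% interval 0.37 to 2.27, adjusted p = 0.0851) without the block and 1.32 (95% interval 0.94 to 1.70, adjusted p = 0.0076) with it. With the block the call held without any 1 replicate number (adjusted p between 0.0055 and 0.0311). Without the block it was called once si-NUF2 replicate 3 was left out (log2 fold change 1.77, adjusted p = 0.0306).

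In ACHN cells IRF7 went the other way. It had 1.49, 2.05 and 3.18 FPKM with si-NUF2 and 2.90, 2.69 and 3.61 FPKM with si-NC, lower in 3 of 3 same-numbered pairs although the groups overlapped. The log2 fold change of -0.48 was not called in this line with or without the block (adjusted p = 0.107 with it). The difference between the responses of the lines, ACHN minus 769-P, was -1.79 on the log2 scale (adjusted p = 0.906 without the block, and 0.0381 with it, SE 0.253). IRF7 was the only member called for this difference with the block, 1 of 9, where 1.41% of 16575 genes were called. The call was lost without any 1 replicate number, with adjusted p between 0.1 and 0.228. IRF7 was thus higher in 769-P cells before knockdown and further apart after it, with the si-NC libraries shared by both comparisons.

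STAT2 (ENSG00000170581) lies on the reverse strand of chromosome 12, from 56341597 to 56360155. With si-NUF2 it had 7.40, 7.86 and 5.20 FPKM in 769-P cells against 5.51, 5.04 and 5.08 FPKM with si-NC. The pair of replicate 3 barely differed, by 0.03 on the log2 scale, beside 0.42 and 0.63 in pairs 1 and 2, and the log2 fold change of 0.37 was not called (adjusted p = 0.178, and 0.0767 with the block). ACHN cells had 6.15, 11.4 and 7.99 FPKM with si-NUF2 and 8.60, 13.3 and 10.5 FPKM with si-NC, lower in 3 of 3 pairs. There the log2 fold change of -0.36 (SE 0.0661) was called with the block (adjusted p = 0.0363) and not without it (adjusted p = 0.858), and it was the 1 of 8 members tested in ACHN cells to be called, against a background of 11.7%. Leaving out any 1 replicate number ended that call, with adjusted p between 0.0576 and 0.15. The difference between the lines was -0.72 on the log2 scale and was not called (adjusted p = 0.0802 with the block).

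IRF9 (ENSG00000213928), the DNA-binding partner of STAT2, had the fewest reads of the 9 genes, with 23 to 45 per library in ACHN and 40 to 100 per library in 769-P cells. It lies on the forward strand of chromosome 14, from 24161053 to 24166565, and 48.4% of its exon bases are also annotated to another gene on the same strand (AL136295.5). featureCounts by default leaves out reads that fall on more than 1 gene, and the setting used is not given in the sources used here, so the level of IRF9 may be understated. In 769-P cells IRF9 had 0.714, 0.916 and 0.368 FPKM with si-NUF2 and 0.519, 0.386 and 0.326 FPKM with si-NC. It was higher in 3 of 3 pairs, the groups overlapped, and the log2 fold change of 0.54 was not called (adjusted p = 0.368, and 0.202 with the block). In ACHN cells it had 0.209, 0.175 and 0.185 FPKM against 0.336, 0.308 and 0.277 FPKM. The groups did not overlap, a ratio of 0.618, but all 6 libraries lay under 0.5 FPKM and IRF9 was not among the genes tested there. Of the genes that were tested in ACHN cells, 14.3% had groups that did not overlap.

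**Figure D2:**
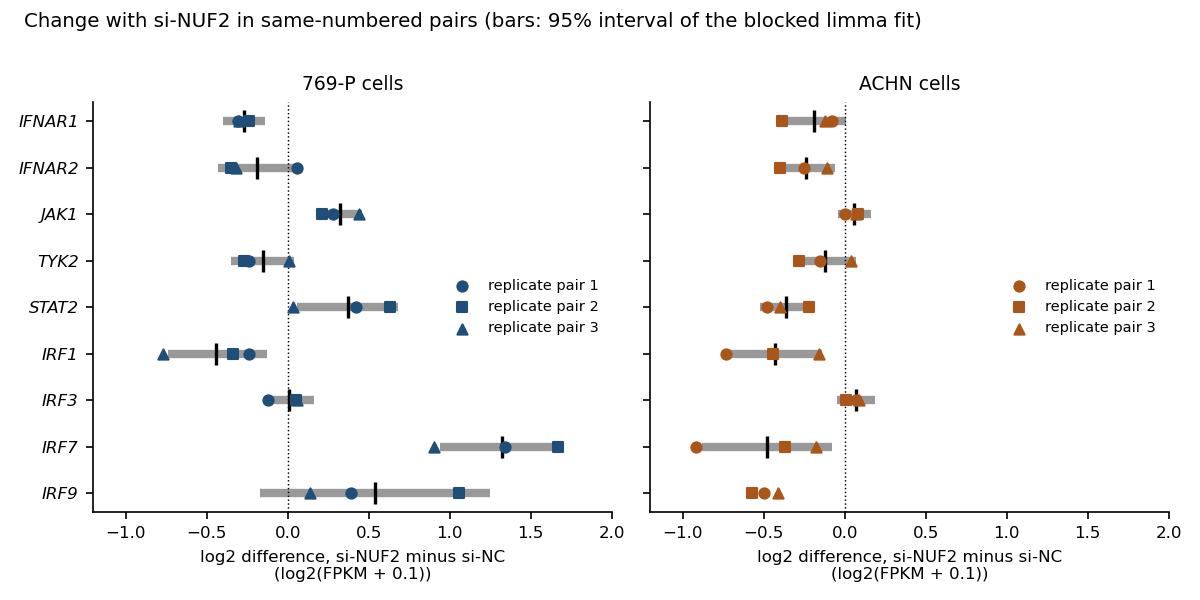
Differences between si-NUF2 and si-NC on the log2(FPKM + 0.1) scale (x axis) for each of the 9 genes in same-numbered pairs of libraries, in 769-P (left) and ACHN cells (right), with the log2 fold change of the blocked fit as a tick and its 95% interval as a grey bar. IRF7, STAT2 and IRF9 lie above 0 in all 3 pairs of 769-P and below 0 in all 3 pairs of ACHN cells, and IRF1 and IFNAR1 lie below 0 in all 6 pairs. IRF9 in ACHN cells was under the filter and has no bar.

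IRF1 (ENSG00000125347), on the reverse strand of chromosome 5 from 132481609 to 132490798, was lower with si-NUF2 in all 6 pairs but was not called in either line. In 769-P cells it had 1.95, 2.90 and 2.19 FPKM with si-NUF2 and 2.32, 3.70 and 3.80 FPKM with si-NC, a log2 fold change of -0.44 (adjusted p = 0.248, and 0.0518 with the block). In ACHN cells the values were 5.19, 3.13 and 15.9 FPKM against 8.66, 4.28 and 17.7 FPKM, a log2 fold change of -0.43 (adjusted p = 0.988, and 0.0737 with the block). The spread among ACHN replicates was far larger than the effect of the siRNA: the highest library had 5.07 times the lowest with si-NUF2 and 4.14 times with si-NC, with replicate 3 highest and replicate 2 lowest in both. Of its exon bases 22.0% are shared with C5orf56 on the opposite strand, and without a stated strand setting the reads of such a pair cannot be told apart.

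The promoters of IRF1 and IRF9 are shown because each holds a match to the gamma-activated site, the DNA motif that STAT dimers bind. Promoter sequences (250 bases before to 50 after each annotated start) came from RefSeq on GRCh38.p14, which had an entry for 6 of the 9 genes (IFNAR1, JAK1, TYK2, STAT2, IRF1 and IRF9). Both strands were searched for TTCNNNGAA, the gamma-activated site, which 7.66% of 35116 promoters hold, and for GAAANNGAAA, the core of the interferon-stimulated response element that the STAT2-IRF9 complex binds, which 3.57% hold. The first motif was found in the promoters of IRF1, 124 to 116 bases before the start (chr5:132490879-132490907, reverse strand), and IRF9, 63 to 55 bases before it (chr14:24161192-24161220, forward strand), written here 5′ to 3′ on the strand of the gene with the match in capitals.
IRF1: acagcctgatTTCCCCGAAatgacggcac
IRF9: accacgtgatTTCTGGGAAaaggccctcc
The second motif was not found in the windows of the 6 genes, so neither match overlaps one. A match is a description of the letters and not a measured site. In 769-P cells IRF9 was higher and IRF1 lower in every pair, with neither called, and any part of the motif in this was not tested.

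The receptor chains differed little between the siRNAs. IFNAR1 (ENSG00000142166), on the forward strand of chromosome 21 from 33324477 to 33359862, had 5.22, 5.95 and 7.01 FPKM with si-NUF2 and 6.51, 7.05 and 8.66 FPKM with si-NC for 769-P cells. The groups overlapped, but each pair differed by nearly the same amount, -0.31, -0.24 and -0.30 on the log2 scale. Its log2 fold change of -0.27 was called with the block (adjusted p = 0.0207) and not without it (adjusted p = 0.262). The blocked call was lost without replicate 1 (adjusted p = 0.083), without replicate 2 (adjusted p = 0.0919) and with no filter on low values (adjusted p = 0.0535). In ACHN cells IFNAR1 had 7.74, 4.13 and 8.70 FPKM against 8.20, 5.43 and 9.49 FPKM, also lower in 3 of 3 pairs, with a log2 fold change of -0.19 that was not called (adjusted p = 0.177 with the block).

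IFNAR2 (ENSG00000159110), its neighbour on chromosome 21 from 33229901 to 33265675, had 5.03, 5.05 and 5.17 FPKM with si-NUF2 and 4.83, 6.44 and 6.46 FPKM with the control in 769-P cells. In ACHN cells it had 12, 4.34 and 16.9 FPKM against 14.3, 5.76 and 18.2 FPKM. Neither line gave a call (adjusted p = 0.193 and 0.0884 with the block). The lower level in replicate 2 of ACHN cells was present with both siRNAs, the highest library having 3.89 times the lowest with si-NUF2 and 3.16 times with si-NC. IFNAR2 shares 44.2% of its exon bases with AP000295.1 on the same strand, which had at most 0.0319 FPKM, and 39.1% with IL10RB-DT on the opposite strand.

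JAK1 (ENSG00000162434), on the reverse strand of chromosome 1 from 64833229 to 64966504, serves the receptors of many cytokines besides interferon. In 769-P cells it had 86.5, 81.4 and 97.0 FPKM with si-NUF2 and 71.2, 70.5 and 71.7 FPKM with si-NC. The groups did not overlap, and the log2 fold change of 0.32 (SE 0.0762, adjusted p = 0.044) was a 1.25-fold rise. The call was lost when any 1 of the 6 libraries was left out, with adjusted p between 0.0553 and 0.131, and with the block it was lost without replicate 2 (adjusted p = 0.059). With no filter on low values it was not called either (adjusted p = 0.0997). In ACHN cells JAK1 had 158, 65.0 and 152 FPKM with si-NUF2 and 158, 61.5 and 145 FPKM with si-NC, a log2 fold change of 0.06 with a 95% interval of -0.04 to 0.16 in the blocked fit. The difference between the lines, -0.25, was not called (adjusted p = 0.113 with the block).

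TYK2 (ENSG00000105397), the kinase carried by IFNAR1, lies on the reverse strand of chromosome 19 from 10350529 to 10380676. It had 8.33, 7.31 and 8.02 FPKM with si-NUF2 against 9.88, 8.83 and 7.96 FPKM in 769-P cells, and 12.4, 8.74 and 9.31 FPKM against 13.8, 10.6 and 9.07 FPKM in ACHN cells. Replicates 1 and 2 were lower and replicate 3 slightly higher with si-NUF2 in both lines, and neither log2 fold change, -0.15 and -0.12, was called (adjusted p = 0.184 and 0.334 with the block).

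IRF3 (ENSG00000126456), on the reverse strand of the same chromosome from 49659569 to 49665875, was the most even of the 9 genes. It had 16.6, 14.8 and 14.2 FPKM with si-NUF2 and 18.0, 14.3 and 13.6 FPKM with the control in 769-P cells, and 15.2, 15.5 and 15.3 FPKM against 14.4, 15.3 and 14.3 FPKM in ACHN cells. The 95% interval of its log2 fold change in the blocked fit was -0.14 to 0.16 for 769-P cells and -0.05 to 0.19 for ACHN cells. BCL2L12, on the opposite strand, shares 19.3% of the exon bases of IRF3 and had between 15.2 and 27.0 FPKM, so part of either level may belong to the other gene.

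In ACHN cells no gene was called without the block (0.0% of 15114 in limma, with 1231 genes but 0 of 8 members at an unadjusted p under 0.05). Libraries of the same number resembled each other across the siRNAs. The same replicate was the highest with both siRNAs for 9 of 9 members in ACHN and for 5 of 9 in 769-P cells, and the lowest for 5 of 9 and 7 of 9. In the pairs, 6 of the 9 members were lower with si-NUF2 in all 3 pairs of ACHN cells and 2 (JAK1 and IRF3) were not lower in any, beside 28.0% and 26.9% of all genes tested that were lower or higher in 3 of 3. In 769-P cells 4 members were higher in 3 of 3 pairs (JAK1, STAT2, IRF7 and IRF9) and 2 were lower (IFNAR1 and IRF1), beside 29.7% and 33.4% of genes.

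The textbook targets of the STAT2-IRF9 complex showed a far larger difference than STAT2 or IRF9. All 28 targets on the list were higher with si-NUF2 in 3 of 3 pairs of 769-P cells, where 18.3% of the 31645 genes above 0 were. This count takes no filter on level. The median log2 difference of the 28 genes was 1.75, 2.19 and 1.16 in pairs 1, 2 and 3, in the same order as IRF7, STAT2 and IRF9, each of which was highest in pair 2 and lowest in pair 3. Summed over the list, the targets had 497, 570 and 181 FPKM with si-NUF2 and 135, 124 and 78.1 FPKM with si-NC. Of the 21 targets tested 8 were called higher without the block and 21 with it, against 5.32% and 13.9% of all genes, among them IFI44 (log2 fold change 2.70, adjusted p = 0.0148 without the block), IFIT1 (2.66, adjusted p = 0.0261), SAMD9L (1.04, adjusted p = 0.017) and SAMD9 (0.82, adjusted p = 0.0261). With the block, 17 of 19 targets tested were called without replicate 1, 13 of 18 without replicate 2, 19 of 19 without replicate 3, and 17 of 28 with no filter. The list was drawn up with the interferon response of these libraries already known, and some targets passed the filter through the si-NUF2 libraries alone, so the count is no independent evidence of its direction.

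In ACHN cells the same targets did not rise. Their sum was 98.6, 100 and 155 FPKM with si-NUF2 and 104, 114 and 166 FPKM with si-NC, 1 of 28 was higher and 11 were lower in 3 of 3 pairs (beside 16.2% and 17.6% of the genes above 0), and the median log2 difference was -0.02, -0.23 and -0.19. With the block 2 of the 21 tested were called lower, IFIT3 (log2 fold change -0.52, adjusted p = 0.0184) and IFIT2 (-0.41, adjusted p = 0.021), where 5.09% of all genes were, and without it none was. Neither was called with the block and no filter, or without replicate 2 or 3. For the difference between the lines 17 of 23 targets were called lower in ACHN than in 769-P cells with the block, where 0.839% of all genes were, and 0 without it, with IFI44 at -2.69 and IFI6 at -2.52. With a replicate number left out, the blocked fit called 1 of the 23 without replicate 1 and 0 without replicate 2 or 3. The list was drawn up with the interferon response of these libraries known, so the 17 of 23 are no independent evidence either. At baseline 2 of the 20 targets tested were higher in 769-P than in ACHN cells and 7 were lower, IFIT2, MX1 and HERC5 among the lower. Beside these counts, 61.4% of all genes tested were called in either direction. MX1 and HERC5 passed the filter only through the ACHN libraries, which fixed their direction in advance.

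**Figure D3:**
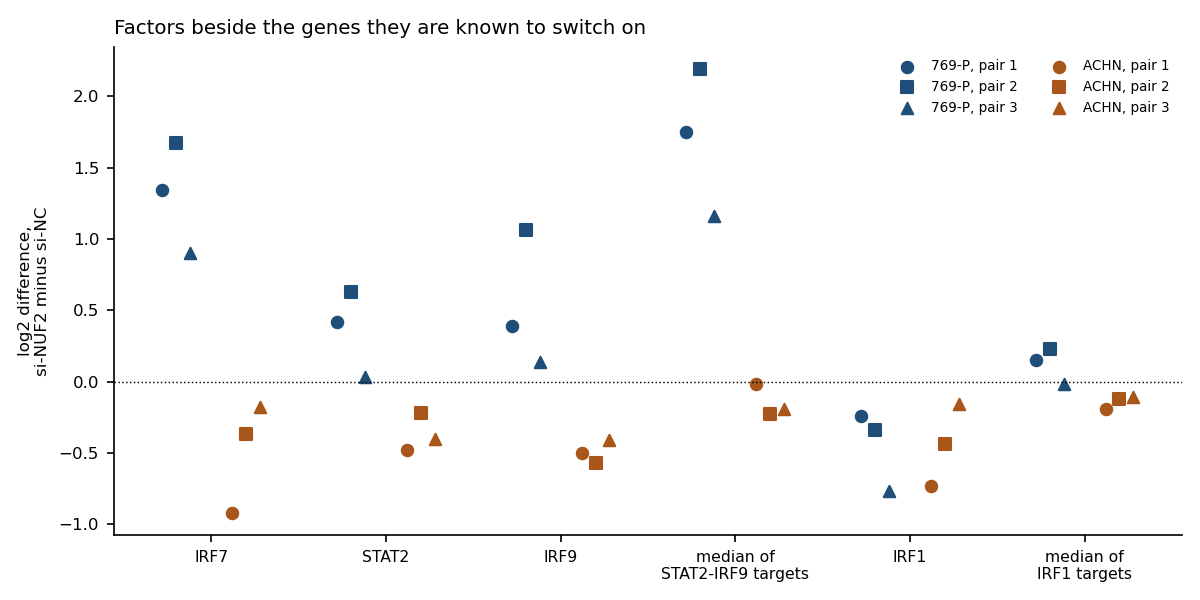
Differences between si-NUF2 and si-NC on the log2(FPKM + 0.1) scale (y axis) in each same-numbered pair of 769-P (blue) and ACHN cells (brown). Shown are IRF7, STAT2, IRF9 and IRF1, with the median of the textbook targets of the STAT2-IRF9 complex and that of the textbook targets of IRF1. In 769-P cells the median of the 28 STAT2-IRF9 targets (1.75, 2.19 and 1.16) lies above STAT2 and IRF9 in every pair, while the targets of IRF1 lie near 0 with IRF1 below it.

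The targets of IRF1 did not follow the level of IRF1 in 769-P cells. PSMB8, GBP1 and TAP1, which serve antigen processing and defence in the cell, rose there (log2 fold changes 0.60, 0.77 and 0.79, adjusted p = 0.0136, 0.0146 and 0.0184), 3 of 9 where 5.32% of all genes were higher, while IRF1 itself was at -0.44. The other 6 of the 9 targets tested were not called. In ACHN cells 3 of 10 fell with the block (GBP3, IL15 and PSMB10, adjusted p = 0.0321, 0.0349 and 0.046), where 5.09% of all genes did, and none without it. With the block, none was called with no filter or without any 1 replicate number.

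Transcripts of the interferons themselves were scarce. Summed over 10 interferon genes, 22, 30 and 13 reads were recovered from the si-NUF2 libraries of 769-P cells and 20, 7 and 6 reads from the si-NC libraries, against 0 reads in the 3 si-NUF2 libraries and 1 read in the 3 si-NC libraries of ACHN cells. IFNL1, a type III interferon, had 10, 6 and 4 reads with si-NUF2 and 1, 1 and 0 reads with si-NC in 769-P cells, without overlap. IFNL2 (5, 9 and 2 against 4, 0 and 0 reads) and IFNL3 (3, 7 and 2 against 5, 1 and 0 reads) overlapped between the siRNAs. IFNE had fewer reads with si-NUF2, with 4, 4 and 4 against 10, 3 and 6, and held 19 of the 33 control reads. IFNB1 had 0, 4 and 1 reads against 0, 2 and 0 reads. IFNA1, IFNA2, IFNW1 and IFNG were at 0 in all 12 libraries. None of the 10 reached the filter, so none was tested in the fits with it, and the counts cover a single time point. With the block and no filter on low values, 5 were tested in 769-P cells, of which 1 was called higher and 0 lower. In ACHN cells 1 was tested in that setting and 0 were called.

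Of the regulators that act on the 9 genes, TRAF3, MAVS and PTPN11 changed in the same direction in both lines. TRAF3, an adaptor between the sensors and TBK1, rose in 769-P cells (log2 fold change 0.70, adjusted p = 0.00527) and, with the block, in ACHN cells (0.82, adjusted p = 0.0128). MAVS, the mitochondrial adaptor of the RNA sensors, fell by 0.33 on the log2 scale in 769-P cells (adjusted p = 0.0376) and, with the block, fell by 0.33 in ACHN cells too (adjusted p = 0.0404). These were the 2 called of the 10 kinases and adaptors upstream of IRF3 and IRF7 that were tested in 769-P cells and of the 11 in ACHN cells. Over all genes, 9.9% were called in 769-P cells without the block, 27.6% with it, and 11.7% in ACHN cells with it. These counts alone do not set the list apart from genes at large. Among the 13 brakes on the path, of which 12 were tested in each line, PTPN11, a tyrosine phosphatase, rose in 769-P (0.47, adjusted p = 0.0281) and, with the block, in ACHN cells (0.20, adjusted p = 0.0361). In ACHN cells all 3 blocked calls were lost with no filter on low values and without replicate 3 (adjusted p of TRAF3 0.0653 and 0.0771), and those of MAVS and PTPN11 also without replicate 1 or 2.

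USP18, which binds IFNAR2 and blocks signalling and is itself an interferon-stimulated gene, had 11.3, 12.9 and 3.73 FPKM with si-NUF2 and 2.50, 2.74 and 1.45 FPKM with the control in 769-P cells. It was called with the block (log2 fold change 1.89, adjusted p = 0.00669), and the difference between the lines, -1.80, was called with the block as well (adjusted p = 0.0381) but not without any 1 replicate number (adjusted p between 0.0665 and 0.228). The other brakes tested, SOCS and PIAS genes among them, were not called in either line. Of the other IRFs and the partners of IRF2, 1 of 5 tested was called in each line, IRF2BP2 in 769-P cells (-0.75, adjusted p = 0.00698) and, with the block, IRF2 in ACHN cells (-0.28, adjusted p = 0.0403, and between 0.106 and 0.126 with no filter or a replicate number left out). Of the other interferon receptors and their kinases, IFNGR2, 1 of 4 tested, was called in 769-P cells with the block (-0.23, adjusted p = 0.0432) but not without replicate 2 or 3 or with no filter, and none of the other STATs tested was called in either line. Beside these counts, 9.9% of all genes were called in 769-P cells without the block and 27.6% with it, and 11.7% in ACHN cells with it.

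The genes whose pattern was most like that of a member were found by Pearson's r over the 12 libraries after the mean of each line was taken out, among 12931 genes. These libraries share replicate numbers and siRNAs, so r describes likeness and is not tested. Most like IRF7 were IFI35 (r = 0.967), PARP10 (r = 0.955) and HERC6 (r = 0.947), of which IFI35 and HERC6 are on the list of STAT2-IRF9 targets. Most like STAT2 were C10orf62 (r = 0.968), ZMYND8 (r = 0.920) and GPBP1L1 (r = 0.901), none of them on that list. For JAK1 they were P4HA2 (r = 0.994), CD59 (r = 0.983) and PTX3 (r = 0.981), and for IFNAR1 they were SLC41A2 (r = 0.971), LACC1 (r = 0.968) and SLC15A4 (r = 0.964). The members called in a line did not share their nearest genes.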

How the data were processed

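The deposited values are FPKM, 1 value per gene and library. According to the submitters' processing notes the authors aligned reads to hg38 with HISAT2 2.0.5 and counted them with featureCounts 1.5.0-p3, after filtering with fastp per the methods; strand and overlap settings are not given in the sources used here. Groups and replicate numbers came from the labels. The 9 genes, the pathway lists and the tests were chosen with earlier results of these data known. FPKM were scaled in each fit with trimmed means of M values (dropping 30% of ratios and 5% of levels), with factors between 0.9916 and 1.011, and log2(FPKM + 0.1) was fitted with limma 3.58.1 in R 4.3.3 (lmFit, eBayes with trend) for genes with at least 0.5 FPKM in at least 3 libraries. The difference between lines was the interaction in 1 fit of 12 libraries. Deviations of same-numbered libraries correlated at 0.19 to 0.36 (769-P) and 0.461 to 0.735 (ACHN), over 0.1 in every pair, so the number was taken to pair libraries within a line. Whole reads were recovered with GENCODE 29 exon lengths for 34588 genes (95.18% of values above 0 whole within 0.02); depth limits mainly IRF9 and the interferons. Named genes were the 9 members, NUF2, and from each list up to 4 called genes with the lowest p in a comparison, and, for members called in a line, the 3 genes of most similar pattern. IFNL1 to IFNL3, IFNE, IFNB1, CA9, CDH6, CD3E, ITGAM and CASP1 were named after their values were seen. Symbols and positions are those of the files and GENCODE 29; WARS1 is listed as WARS. A further STAT, the usual partner of STAT2, is not reported here. The alternatives were other scalings, pseudocounts and filters, the replicate block, 1 fit of all libraries, limma-voom on recovered reads, and libraries left out. Python 3.11.15 (pandas 2.3.3, matplotlib 3.10.9) served for tables and figures.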

Additional observations from a re-analysis of the deposited data

Results flagged for a closer look

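The response of IRF7 differed between the lines by -1.79 on the log2 scale (ACHN change minus 769-P change), which the interaction test with the block called, and the test without it or with a replicate number left out did not. STAT2 was higher in all 3 pairs of 769-P cells (mean difference of the pairs 0.36 on the log2 scale) and lower in all 3 pairs of ACHN cells, and the interaction was tested and not called (adjusted p = 0.0802 with the block). IRF9 was likewise higher in all 3 pairs of 769-P cells (mean difference 0.53) and lower in all 3 pairs of ACHN cells, with an interaction of -1.02 that was not called (adjusted p = 0.139 with the block) and 23 to 45 reads per ACHN library.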

How the results depend on the processing

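Settings with the replicate block beyond the plain block were chosen after seeing the data. Of 9 members in 769-P cells, 1 was called as reported, 0 with no filter on low values or all 12 libraries in one fit, 3 with the replicate block, 6 with the block on recovered reads (limma-voom), 1 with the block and no filter, 3, 1 and 5 with the block without replicate 1, 2 or 3, and 0 to 2 with any 1 library left out (2 without si-NUF2 replicate 3). In ACHN cells 0 of 8 became 1 with the block and 3 with the block on recovered reads, and stayed 0 with the block and no filter or a replicate number left out. For the difference between lines 0 of 9 became 1 with the block (IRF7) and 4 with the block on recovered reads (JAK1, STAT2, IRF7 and IRF9). The baseline count of 3 ran from 2 to 5 with a library left out, 5 without ACHN si-NC replicate 2. NUF2 in ACHN cells passed the threshold with the block (-1.88), all 12 libraries in one fit (-1.88), the block on recovered reads (-1.86) and the block without replicate 1 (-1.64) or 2 (-2.06). Between the lines replicate numbers did not pair the si-NC libraries (r of -0.0564, -0.0149 and 0.042), and the block left the baseline count at 3.

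Over all genes the calls in 769-P cells were 1402 as reported, 644 with no filter, 3908 with the block, 702 in one fit, 4835 with the block on recovered reads, 1538 with the block and no filter, and 1078 to 3032 with the block and a replicate number left out. In ACHN cells 0 (1231 at an unadjusted p under 0.05) became 1774, 167 and 3233 with the block, one fit and the block on recovered reads, but 0 with the block and no filter and 501, 664 and 0 with the block without replicate 1, 2 or 3, and for the difference 0 (782 unadjusted) became 15 with no filter, 2 with a pseudocount of 0.01, 234 with the block, 966 with the block on recovered reads, and 0 to 1 with the block and a replicate number left out. Baseline calls fell from 9443 to 6243 with the stricter filter. Of 696 values of single genes under an alternative, 602 kept direction and side of the threshold, 16 lost and 33 gained a call, and 45 turned in sign. The turns were all in values that were not called. IRF3 in 769-P cells was -0.000294 for FPKM as deposited and -0.02 with the block without replicate 2 or 3. For the difference between lines, IFNAR2 was 0.08 and IRF3 -0.00321 with the block without replicate 1, and IRF1 was -0.29 with the block without replicate 3 and -0.04 with a pseudocount of 1.

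With a library left out and no block, the change ran from -0.07 to 0.14 for IRF3 in 769-P cells. In ACHN cells it ran from -0.42 to 0.14 for IFNAR1, -0.73 to 0.32 for IFNAR2, -0.37 to 0.48 for JAK1, -0.27 to 0.04 for TYK2 and -1.08 to 0.08 for IRF1. The difference between lines ran from -0.14 to 0.41 for IFNAR1, -0.54 to 0.51 for IFNAR2, -0.69 to 0.16 for JAK1, -0.11 to 0.20 for TYK2, -0.64 to 0.52 for IRF1 and -0.06 to 0.14 for IRF3. At baseline it ran from -0.25 to 0.14 for IFNAR1 and -0.04 to 0.16 for IRF3. Beyond the smaller numbers of genes or libraries in some settings, the cause was not tested.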

Other observations

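Among the renal epithelial markers, KRT8 and KRT18, the paired keratins of simple epithelia, rose with si-NUF2 in ACHN cells with the block (log2 fold changes 0.61 and 0.59, adjusted p = 0.0121 and 0.0114, limma), calls that were lost with no filter on low values and without replicate 3. KRT18 rose in 769-P cells as well (0.26, adjusted p = 0.0214 with the block, and 0.125 without replicate 2), and the difference between the lines was called for KRT8 (0.45, adjusted p = 0.0359 with the block) but not without any 1 replicate number. PAX8, a transcription factor of the kidney lineage, fell by 0.44 on the log2 scale in 769-P cells (adjusted p = 0.0352), and CDH6, a cadherin of the proximal tubule, fell by 0.55 there with the block (adjusted p = 0.00773). At baseline 2 of the 9 renal markers tested were lower in 769-P than in ACHN cells, NNMT (log2 difference -6.22) and PAX2 (-1.46). Another 2 were higher, CDH6 (5.89) and LHX1 (1.87), beside 61.4% of all genes tested that were called in either direction. CDH6 passed the filter only through the 769-P libraries, which fixed its direction in advance.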
